A study of Mus musculus with 6 samples.

Results

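Granzyme B (Gzmb), granzyme C (Gzmc), granzyme K (Gzmk) and perforin (Prf1) were followed across the lymphocytes of mouse skin. These 4 genes were taken by name, with no threshold on a measured value, and each had its own column among the 16158 genes of the deposited single-cell tables. Killer lymphocytes store these proteins in cytotoxic granules: perforin forms pores in the membrane of a target cell, and granzymes are serine proteases that enter through them and cut proteins inside. Gzmb cleaves caspases and other death substrates. Gzmk is a trypsin-like granzyme often found in effector-memory CD8 T cells, and Gzmc is a mouse granzyme encoded beside Gzmb.

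Single-cell RNA-seq (10x Genomics, 5' chemistry) was done on cells from the area of skin that had received 4-OH-Tam in 6 mice of the NINJA strain, aged 6 to 12 weeks. The labels name 3 groups of 2 mice: NO_AG, with the antigen off, AG, with the antigen on, and AG_CPI, with the antigen on and CPI, an abbreviation the labels do not expand. All were of this strain, in which expression of an antigen can be switched on, and were examined for skin disease and for P14 CD8 T cells, which carry one transgenic receptor, before sequencing. The 2 mice of a group are labelled as biological replicates, and the series title names PD-1 and effector CD8 T cells in skin as the subject.

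Cells were assigned to 4 gates, in the data rather than by a sorter, by UMIs (unique molecules) of genes other than the 4 described. The CD8 gate held 4500 cells, the CD4 gate 475, the Trdv4 gate, named for the delta-chain segment used by many T cells of mouse epidermis, 1381, and the gate of lymphocytes without Cd3 286. Of 20464 retained cells, 1982 others with Cd3 UMIs met no gate, and 5768 keratinocytes served to measure background RNA. In the CD8 gate 83.1% to 92.0% of cells of a mouse had a Cd8a UMI. In the Trdv4 gate 57.1% to 84.7% had Trdc. The Cd3-negative gate was mixed: natural killer and ILC1 markers (Ncr1, Klrb1c, Eomes, Tbx21, Xcl1, Klrd1) summed to 9.48 to 18.9 UMIs per 10000, and ILC2 markers (Gata3, Il1rl1, Areg, Il5, Il13) to 0.429 to 6.07, while Il1rl1, which defines many ILC2, was seen in at most 1.2% of its cells.

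Libraries held 1736 to 4972 cells and 5903724 to 24656382 UMIs, and every cell had 1501 to 14995 UMIs. A total of 255 cell barcodes occurred in over 1 library. Both mice below stood apart from the rest. In AG_CPI 1, Ddx3y, a Y-linked gene at 0 UMIs in the other 5 mice, was detected in 31.0% of CD4 cells and 17.2% of keratinocytes but in 2.05% of CD8 cells, and Xist in 57.2% of CD8 cells and in none of its CD4 cells or keratinocytes. In AG 2, 18.7% of keratinocytes had a UMI of Fcer1g, a leukocyte gene, and 6.36% one of Cd8b1. For the 4 genes, each call that changes without either mouse is named beside its value.

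A promoter window of each gene is shown because Gzmb, Gzmk and Prf1 moved together in the CD8 gate and Gzmc did not. The sequences are from RefSeq on GRCm38.p6, read 5′ to 3′ on the gene's strand, and capitals mark matches to the motifs searched. Each ends at the base before the annotated start, except for Gzmc, whose window lies inside the annotated gene. They lie at chr14:56262335-56262584 on the minus strand for Gzmb, chr14:56234658-56234907 on the minus strand for Gzmc, chr13:113180966-113181215 on the minus strand for Gzmk and chr10:61297586-61297750 on the plus strand for Prf1.
Gzmb: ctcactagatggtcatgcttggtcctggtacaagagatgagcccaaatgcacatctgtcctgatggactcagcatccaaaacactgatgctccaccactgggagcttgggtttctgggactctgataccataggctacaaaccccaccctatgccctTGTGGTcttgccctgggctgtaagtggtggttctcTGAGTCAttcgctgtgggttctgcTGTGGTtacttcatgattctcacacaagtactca
Gzmc: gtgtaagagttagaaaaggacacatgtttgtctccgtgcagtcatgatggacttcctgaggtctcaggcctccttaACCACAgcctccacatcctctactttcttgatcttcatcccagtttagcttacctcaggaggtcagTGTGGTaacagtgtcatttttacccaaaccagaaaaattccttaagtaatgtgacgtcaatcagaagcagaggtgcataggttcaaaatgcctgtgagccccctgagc
Gzmk: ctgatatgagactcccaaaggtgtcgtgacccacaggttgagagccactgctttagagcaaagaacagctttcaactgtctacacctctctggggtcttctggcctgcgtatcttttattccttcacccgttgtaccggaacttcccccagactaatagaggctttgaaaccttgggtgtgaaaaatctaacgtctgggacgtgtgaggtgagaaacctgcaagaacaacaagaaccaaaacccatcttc
Prf1: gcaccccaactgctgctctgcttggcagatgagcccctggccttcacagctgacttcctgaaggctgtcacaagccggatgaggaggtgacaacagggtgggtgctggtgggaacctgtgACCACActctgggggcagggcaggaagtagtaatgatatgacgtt
The Prf1 line is shorter because its annotated gene begins 85 bases inside the window. The Gzmc window lies within the span that RefSeq gives the gene, so its matches are not upstream of the annotated start. On both strands of 250 bases, the RUNX motif TGTGGT matched 2 times before Gzmb and 2 times in the Gzmc window. It had 1 match before Prf1 and none before Gzmk, and was present in 14.05% of 32851 promoters. The AP-1 motif TGANTCA matched once before Gzmb and occurred in 6.749% of promoters. None of the 4 windows held the letters searched for NFAT (GGAAAA, in 20.43% of promoters), for GAS (TTCNNNGAA, in 7.02%) or for a T-box (AGGTGTGA, in 1.12%). The motifs share no bases in these windows, and a match is a description of letters, not of a bound site.

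Gzmb and Gzmc lie on chromosome 14, at 56258836 to 56262334 and 56231397 to 56241647. Gzmk lies on chromosome 13, at 113171630 to 113180965, in the same stretch as Gzma, and Prf1 on chromosome 10, at 61297751 to 61304684. Gzmc resembles its neighbours closely: its transcript shared runs of up to 68 bases with Gzme, 67 with Gzmg, 52 with Gzmd and 49 with Gzmb, so reads could be split among copies and Gzmc values are uncertain in that respect. Gzmg and Gzmn had no column and were not used here. Gzme, at 2 UMIs in AG 1, and Gzmd, at 4 UMIs in AG 1, were at 0 in every other mouse of the CD8 gate and in all of the other 3 gates. The longest run that Gzmk shared with another granzyme was 19 bases.

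CD8 T cells are the classical users of this pathway, and 3 of the 4 genes were higher in them when the antigen was on. Levels are means over cells of UMIs per 10000 UMIs of a cell. Gzmb was at 3.92 and 4.00 in the NO_AG mice, 11.3 and 14.1 in the AG mice, and 16.2 and 11.9 in the AG_CPI mice. Both NO_AG mice lay below all 4 others, whose groups overlapped. Group means ± SD were 3.96 ± 0.0535, 12.7 ± 2.02 and 14.1 ± 3.1 (n = 2 each).

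Gzmk was at 0.509 and 0.118 in the NO_AG mice, 1.85 and 3.37 in the AG mice, and 3.17 and 2.11 in AG_CPI. Its group means ± SD were 0.314 ± 0.277, 2.61 ± 1.08 and 2.64 ± 0.751 (n = 2 each). The NO_AG mice were again the lowest, with 28 and 15 Gzmk UMIs in all. Prf1 was at 0.522 and 0.416 in the NO_AG mice, 2.14 and 2.17 in the AG mice, and 1.65 and 1.39 in AG_CPI. The 3 groups of Prf1 did not overlap: AG was the highest and NO_AG the lowest.

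Gzmc ran differently. It was at 2.57 and 3.44 in the NO_AG mice, 1.46 and 0.407 in the AG mice, and 1.73 and 1.90 in AG_CPI, so that NO_AG was the highest group and AG the lowest. Few cells carried these means: in each NO_AG and AG mouse, 2 cells held at least as many Gzmc UMIs as all other CD8 cells together, against 17 and 15 cells in AG_CPI. One AG 1 cell alone held 258 of the 696 Gzmc UMIs of its gate.

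**Figure D1:**
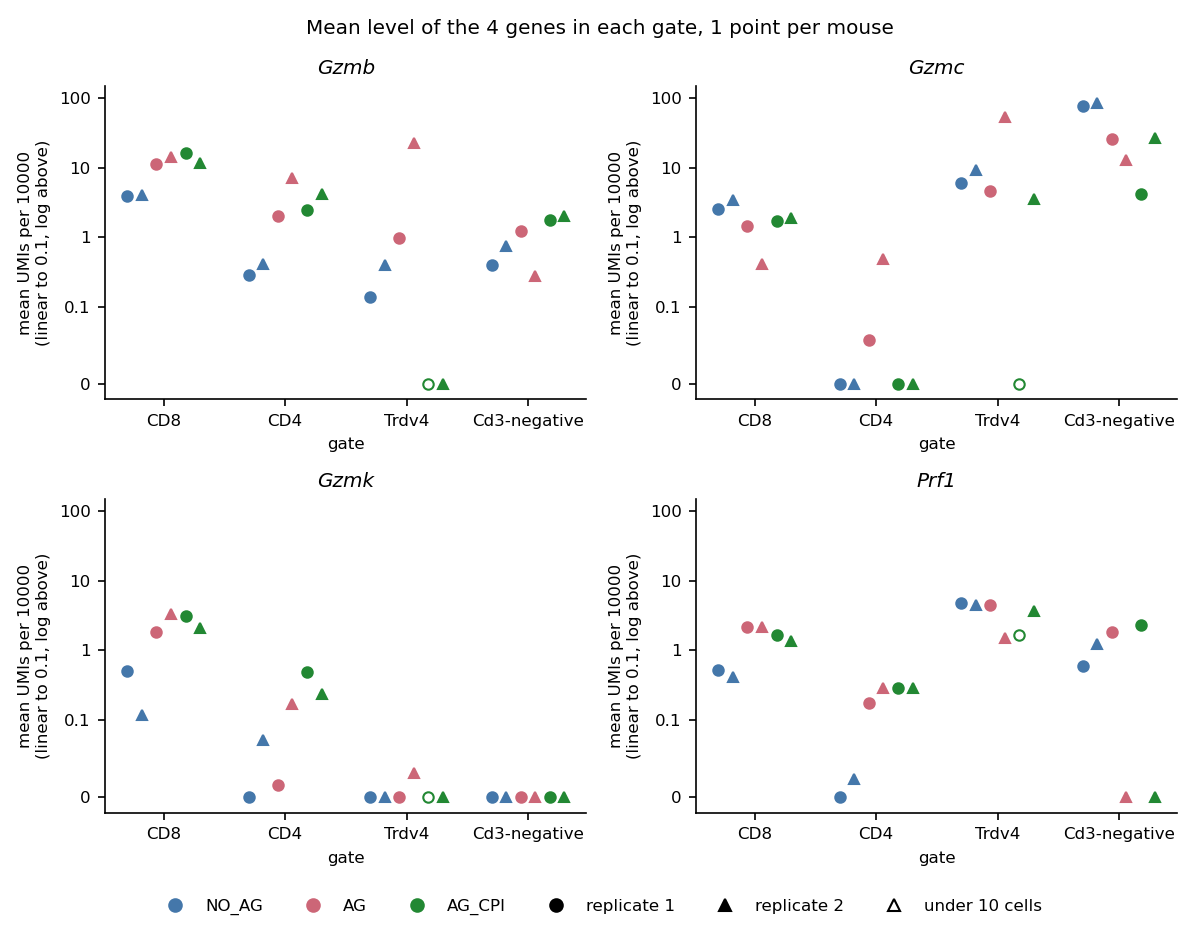
Mean UMIs per 10000 of the 4 genes (vertical axis, linear to 0.1 and logarithmic above) in the CD8, CD4, Trdv4 and Cd3-negative gates, with 1 point per mouse and an open symbol under 10 cells. In the CD8 gate both NO_AG mice lie below the other 4 mice for Gzmb (3.92 and 4.00), Gzmk and Prf1, and Gzmc is highest in the Cd3-negative gate of NO_AG mice (77.7 and 84.5).

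To test these differences, the log2 mean of each mouse was compared with limma over all genes, with all 6 mice sharing 1 estimate of the spread. For AG against NO_AG, limma called 3 of the 4 genes at an adjusted p of 0.05, where 1.92% of 7293 genes were called. By limma, Gzmb rose by a log2 fold change of 1.74 (SE 0.18, adjusted p = 0.000673), higher in 2 of 2 AG mice. Gzmk rose by 2.91 (SE 0.43, limma adjusted p = 0.00718, still called at 3.66 without NO_AG 1, 2.15 without NO_AG 2 and 1.98 with a pseudocount of 0.5) and Prf1 by 2.08 (SE 0.18, limma adjusted p = 0.000179), both again higher in 2 of 2 mice. Gzmc had a log2 fold change of −1.70 (SE 0.40, limma adjusted p = 0.0639) and was not called. Without the filter on low values, limma no longer called Gzmb (1.79, adjusted p = 0.0506) or Gzmk (2.95, adjusted p = 0.132), and Prf1 kept its call. Without AG 1, Gzmc was called at −2.52 (limma adjusted p = 1.56e-05), and without AG 2 it stood at −0.90 (limma adjusted p = 0.0503).

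AG_CPI against NO_AG gave the same 3 calls, with 3.4% of 7293 genes called, and both comparisons share the NO_AG mice. Gzmb rose by 1.85 (limma adjusted p = 0.000377), Gzmk by 2.93 (limma adjusted p = 0.00442) and Prf1 by 1.57 (limma adjusted p = 0.00107) on the log2 scale, each with both AG_CPI mice above both NO_AG mice. Gzmc stood at −0.62 (SE 0.40, limma adjusted p = 0.457), and without AG 2 the same difference was called (limma adjusted p = 0.0431). The Gzmk difference was 3.68 without NO_AG 1, 2.16 without NO_AG 2 and 2.0 with a pseudocount of 0.5, each called. Without AG_CPI 1 it was 2.64 and lost its call (limma adjusted p = 0.0677), while Gzmb at 1.61 and Prf1 at 1.44 kept theirs. Without the filter, Gzmk stood at 3.0 (limma adjusted p = 0.0992). Summed natural killer and ILC1 markers were also lower with NO_AG in the CD8 gate, at 4.59 and 8.71 UMIs per 10000, than with AG (15.3 and 12.8) or AG_CPI (17.9 and 17.0). Ncr1, which defines natural killer cells, was at 0 in 5 of the 6 mice. CD4 markers, with Cd4 itself at 0, stood at 4.91 and 5.06 with NO_AG and 9.08 to 11.9 in the other 4 mice. The list of Trdv4-gate markers, with Trdv4 itself at 0, stood at 4.10 and 4.09 with NO_AG, 4.92 and 5.13 with AG and 7.97 and 7.91 with AG_CPI, and myeloid markers at 0.066 and 0.0409 against 0.0865 to 0.225. The part of these markers in the result was not tested.

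AG_CPI against AG called none of the 4 genes, where 0.0274% of 7293 genes (2 genes) were called and 367 had an unadjusted p under 0.05 by limma. Gzmb differed by 0.11 with a 95% interval from −0.29 to 0.51, and Gzmk by 0.02 with an interval from −0.94 to 0.97. Without AG_CPI 1 these became −0.13 and −0.27. Prf1 differed by −0.51 (interval −0.91 to −0.11, limma adjusted p = 0.799), with both AG_CPI mice below both AG mice. Gzmc differed by 1.08 (interval 0.20 to 1.96, limma adjusted p = 0.843), and without AG 1 it was called at 1.89 (limma adjusted p = 0.00163). An exact permutation of 2 against 2 mice cannot go below p = 0.333, so each limma call rests on the spread shared across genes.

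**Figure D2:**
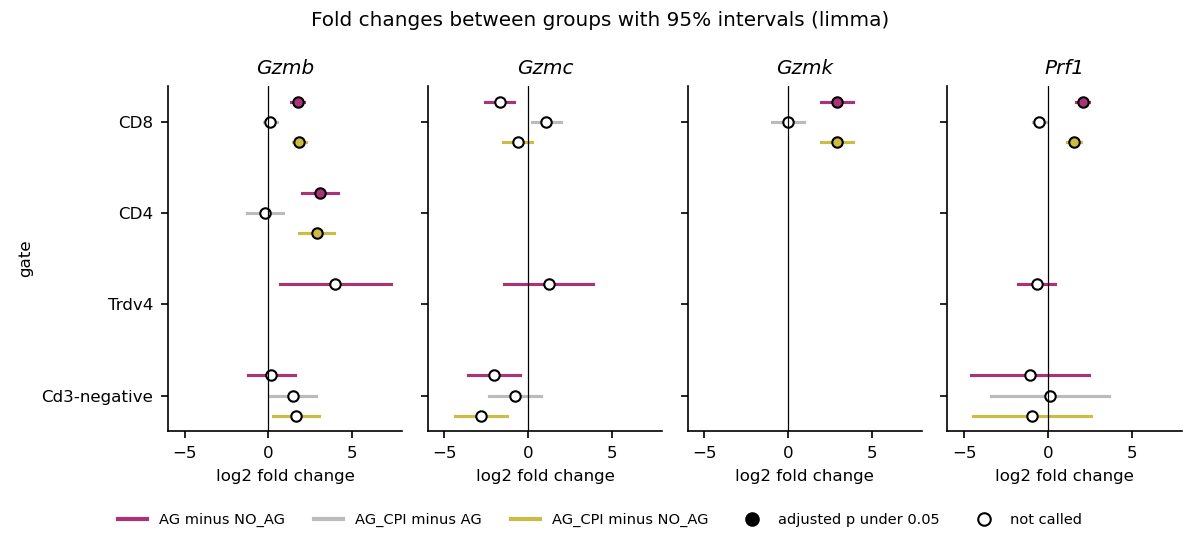
Log2 fold changes of the 4 genes between groups within each gate (horizontal axis) with 95% intervals from limma, filled where the adjusted p was under 0.05. Filled points in the CD8 gate are Gzmb, Gzmk and Prf1, each for AG and AG_CPI against NO_AG (1.74, 2.91 and 2.08 for AG). Gzmb in the CD4 gate (3.07 for AG against NO_AG) is filled in the same comparisons. There Gzmb had fewer than 10 UMIs in each NO_AG mouse and entered through the other mice, so its fill is not read as a call.

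More cells with detectable RNA accompanied the higher means. After every cell was thinned to 1500 UMIs, Gzmb was found in 15.4% (95% Wilson interval 10.2% to 22.6%) and 19.0% (15.4% to 23.1%) of CD8 cells of the NO_AG mice. The share was 39.4% and 57.8% in AG and 62.7% and 50.2% in AG_CPI. Unthinned, the 6 shares ran from 19.2% to 70.1%. Thinned keratinocytes, which should lack the gene, had a Gzmb UMI in 0% to 0.132% of cells of 4 mice but in 5.85% in AG 2 and 3.41% in AG_CPI 2. Every CD8 share lay above the keratinocyte share of its mouse. Median depth before thinning was 2275 to 2855 UMIs in the CD8 gate and 2554 to 6925 in keratinocytes, and intervals cover counting error only.

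Gzmk was found in 5.38% and 1.5% of thinned NO_AG CD8 cells, 18.2% and 30.4% in AG, and 31.8% and 21.1% in AG_CPI. Prf1 was found in 4.62% and 5.49%, then 20.6% and 22%, then 20% and 17.6%. For both genes every AG and AG_CPI mouse lay above both NO_AG mice. The highest keratinocyte share, in AG 2, was 1.21% for Gzmk and 0.605% for Prf1. Gzmc shares, 7.69% and 6.73% in the NO_AG mice, 3.63% and 2.63% in the AG mice and 10.3% and 10.5% in AG_CPI, do not follow the order of the Gzmc means, and no order is read from them.

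The receptor of P14 cells uses the beta segment Trbv13-3, which was found in 404 and 400 CD8 cells of AG and 548 and 648 of AG_CPI, but in 2 and 8 of NO_AG. Within AG 1, cells with Trbv13-3 had a Gzmb mean of 19.7 against 3.14 in cells with another beta segment. The values were 16.8 against 5.39 in AG 2, 15.9 against 12.0 in AG_CPI 1 and 11.7 against 10.3 in AG_CPI 2, higher with Trbv13-3 in 4 of 4 mice. Gzmk was likewise higher in 4 of 4 mice, at 3.11 against 0.472 and 4.48 against 1.46 in AG, and 3.34 against 2.48 and 2.15 against 2.12 in AG_CPI. Prf1 was higher in 3 of 4 mice: 3.95 against 0.522 in AG 1, 2.79 against 0.860 in AG 2 and 1.51 against 0.937 in AG_CPI 2, with 1.52 against 1.95 in AG_CPI 1. Gzmc was 1.80 against 0.197, 0.183 against 0.173, 1.81 against 0.274 and 1.91 against 0.446. Cells with neither or both segment calls (190 and 266 in the AG mice, 389 and 288 in AG_CPI) entered neither class. Their Gzmb mean was below that of Trbv13-3 cells in AG (9.06 and 14.4) and above it in AG_CPI (18.2 and 13.3), and their Gzmc mean was above it in 4 of 4 mice (3.21, 0.858, 2.13 and 2.87).

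Paired within mice, limma called 0 of the 4 genes between the segment classes, with 0.398% of 7292 genes (29 genes) called and 524 at an unadjusted p under 0.05. The log2 differences were 1.19 for Gzmb (limma adjusted p = 0.369), 1.73 for Gzmc (0.117), 1.10 for Gzmk (0.421) and 1.13 for Prf1 (0.513). Without AG 2 the Gzmc difference was called at 2.29. Without AG 1 the differences of Gzmb, Gzmk and Prf1 were 0.73, 0.66 and 0.63. Median depth also differed between the classes, at 3401.5 UMIs with Trbv13-3 against 2484 with another segment in AG 1 and 3296 against 2162 in AG 2, but 2307 against 2389.5 and 2667.5 against 3097.5 in AG_CPI. Its part in the difference was not tested.

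Co-detection asks whether the same cells carry more than 1 of these RNAs. It is given as the number of cells with both, divided by the number that the product of the 2 shares gives, in thinned cells of 1 mouse. For Gzmb and Gzmk in the CD8 gate the ratio was 1.73 in AG 1 (120 cells), 1.36 in AG 2 (190), 1.17 in AG_CPI 1 (250) and 1.28 in AG_CPI 2 (153). Among cells with Gzmb, 31.6%, 41.2%, 37.1% and 26.9% also had Gzmk in these mice, against 9.57%, 15.5%, 22.9% and 15.2% of cells without Gzmb. All 4 mice thus had a ratio above 1.

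Gzmb with Prf1 behaved alike, at 1.75, 1.39, 1.16 and 1.23, as did Gzmk with Prf1, at 1.79, 1.34, 1.10 and 1.09. Pairs with Gzmc were uneven. Gzmb with Gzmc was at 1.60, 0.741, 1.24 and 1.52, and Gzmc with Gzmk at 1.25, 0.314, 0.821 and 0.557, so that cells with Gzmc had Gzmk less often than the product in 3 of 4 mice. In NO_AG mice too few cells carried a pair to give most ratios.

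The ratio was also taken within Trbv13-3 cells alone, a choice made after the values were seen. There Gzmb with Gzmk stood at 1.32, 1.17, 1.16 and 1.16, and Gzmb with Prf1 at 1.29, 1.13, 1.19 and 1.16. Both pairs stayed above 1 in 4 of 4 mice and were lower in the AG mice than over the whole gate. The ratio cannot exceed 1 divided by the larger of the 2 shares. In AG 1, Gzmb was found in 57.9% of Trbv13-3 cells, 39.4% of the gate and 18.6% of cells with another segment. The sizes of ratios are therefore not compared between classes or groups. In cells with another beta segment Gzmb with Gzmk stood at 1.40, 1.25, 1.5 and 1.81 (6, 9, 27 and 27 cells with both), and Gzmb with Prf1 at 1.73, 1.79, 1.19 and 1.45. Because of that limit, no order of AG and AG_CPI is read in either class. Within Trbv13-3 cells Gzmk with Prf1 was at 1.28, 1.09, 1.04 and 0.979, and Gzmc with Gzmk at 1.14, 0.327, 0.632 and 0.358.

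**Figure D3:**
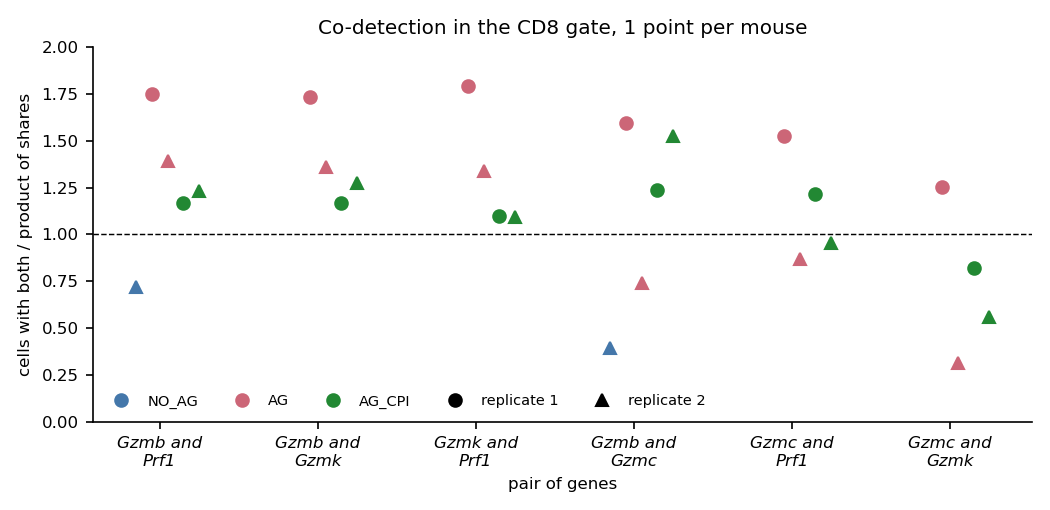
Number of CD8 cells with both RNAs of a pair divided by the number given by the product of the 2 shares (vertical axis), with 1 point per mouse where at least 3 cells were given by the product. Gzmb with Gzmk (1.17 to 1.73) and Gzmk with Prf1 (1.09 to 1.79) lie above the dashed line at 1 in the AG and AG_CPI mice, and Gzmc with Gzmk lies below it in 3 of 4.

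Counting how many of the 4 RNAs a CD8 cell showed gave the same split of mice. None was seen in 75.4% and 69.6% of NO_AG cells, 48.7% and 31.2% of AG cells and 23.6% and 34.5% of AG_CPI cells. Exactly 3 were seen in 0 of 130 and 0 of 401 NO_AG cells, which allows shares of up to 2.31% and 0.748%, and in 5.80%, 7.90%, 7.91% and 4.77% in the AG and AG_CPI mice. All 4 were seen in at most 0.558% of cells of a mouse.

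**Figure D4:**
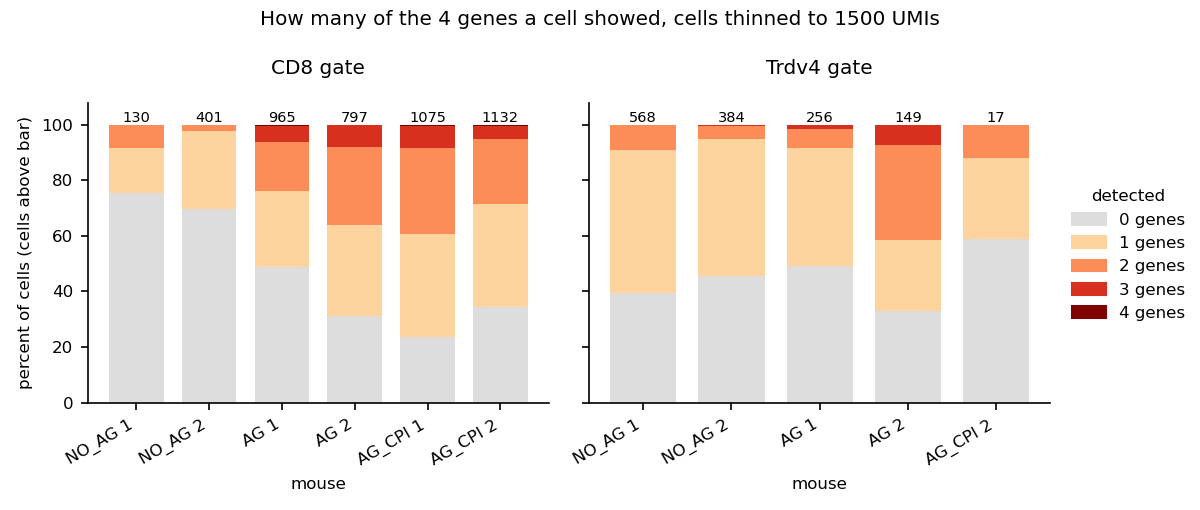
Share of cells (vertical axis, percent) of the CD8 and Trdv4 gates with 0 to 4 of the RNAs detected, cells thinned to 1500 UMIs, 1 bar per mouse. The bar for 0 RNAs is 75.4% and 69.6% of CD8 cells in NO_AG and 23.6% and 34.5% in AG_CPI.

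Other genes of the same CD8 cells were set beside the members, in thinned cells of each mouse with at least 10 cells of both kinds. Cells with Gzma, another granzyme, had Gzmb in 60.6% to 84.4%, against 17.0% to 45.1% of cells without it, higher in 5 of 5 mice. Cells with Tcf7, a transcription factor of naive and memory T cells, had Gzmb in 4.17% to 15.6%, against 17.9% to 63.9% without it, higher in 0 of 6 mice. Cells with Pdcd1, which encodes PD-1, had Gzmb in 54.3% to 67.2%, against 34.4% to 61.6% without it, and Prf1 in 19.9% to 31.0%, against 16.8% to 19.5%, each higher in 4 of 4 mice. Gzmk was higher with Pdcd1 in 3 of 4 mice and Gzmc in 2 of 4.

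Cells with Lag3, an inhibitory receptor gene, had Gzmb in 54.9% to 70.2%, against 29.1% to 58.3% of others, higher in 4 of 4 mice, as was Prf1. Gzmc was higher with Lag3 in 3 of 4 mice. Gzmk was higher with it in both AG mice (27.4% against 13.5% and 35.8% against 27.1%) and lower in both AG_CPI mice (28.1% against 34.0% and 19.3% against 22.5%). Cells with Ifng, the interferon-gamma gene, had Gzmb more often in 6 of 6 mice (22.1% to 70.9% against 11.5% to 59.1%). Cells with Xcl1, a chemokine gene, had Gzmk less often in all 4 AG and AG_CPI mice (4.26% to 14.6% against 19.8% to 33.5%). In the NO_AG mice 0 of 14 and 0 of 52 cells with Xcl1 had it, too few to compare. Cells with Mki67, a proliferation gene, had Gzmb more often in 3 of 6 mice.

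Of 30 other granzyme and granule genes listed, 28 had a column and 21 were tested in the CD8 gate. For AG against NO_AG, limma called 6 higher and 0 lower, where 1.92% of all 7293 genes were called. The median log2 fold change over the genes tested was 0.66, against 0.00 over all genes. In 3 of the 6 both NO_AG mice met the filter by themselves: Gzma (3.36), the granule proteoglycan gene Srgn (0.92) and the granule membrane gene Nkg7 (0.72). The others, Serpinb6b, Serpinb9 and Gzmf, had 1 to 13 UMIs in NO_AG mice and entered through the mice in which they were high. Their calls are not read and their folds are not given. Of 17 regulators tested, 3 were called higher and 0 lower, among them Il2rb (0.85), a receptor chain for interleukins 2 and 15, on 100 and 338 UMIs with NO_AG. Zeb2 and Tox entered through the other groups, with 6 and 14, and 9 and 43, UMIs with NO_AG, so their calls are not read.

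For AG_CPI against NO_AG the granule list had 7 called higher and 1 lower, with a median of 0.54. Over all 7293 genes 3.4% were called, and calls are read only where both mice of the lower group met the filter. In 4 of the 7 both NO_AG mice met the filter: Gzma (5.48), Srgn (1.06), Fasl (1.01), a death ligand, and Nkg7 (0.56). The lower gene was Rab27a (−0.90), which helps granules dock for release, and both its AG_CPI libraries met the filter. Regulators had 5 called higher, of which Il2rb (0.84), Bhlhe40 (1.25) and Il2ra (1.04) met the filter in NO_AG mice, and 1 lower, Tcf7 (−2.09, on 51 and 65 UMIs with AG_CPI). For AG_CPI against AG, Gzma (2.12) alone was called in the granule list and no regulator was. The granule median there was −0.03.

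Gzmb was the member with the most UMIs in CD4 T cells. It was at 0.283 and 0.412 in the NO_AG mice (3 and 9 UMIs), 2.00 and 7.10 in the AG mice, and 2.49 and 4.16 in AG_CPI, with both NO_AG mice below the other 4. The fitted log2 differences from NO_AG were 3.07 for AG (0.151% of 4639 genes called) and 2.88 for AG_CPI (0.517% called). Both NO_AG mice held fewer than 10 Gzmb UMIs, so the gene entered this fit only through mice in which it was high, and the values are a description with no p. AG_CPI differed from AG by −0.20 (interval −1.25 to 0.86, limma adjusted p = 0.997), not called, where 0.0216% of genes were. Natural killer and ILC1 markers summed to 0.784 and 0.614 in the CD4 gate with NO_AG, 1.73 and 2.02 with AG and 1.01 and 1.14 with AG_CPI. The CD8 list, with Cd8a and Cd8b1 at 0, stood at 13.4 and 13.3 with NO_AG and 16.4 to 20.3 in the other 4 mice, and the CD4 markers at 21.7 and 20.3 against 33.3 to 48.4. The part of these values in the Gzmb levels was not tested. With a pseudocount of 0.5 the fitted differences were 2.32 and 2.13. Without the filter, where every gene with a UMI is tested, limma called neither (3.2, adjusted p = 0.533, and 2.88, adjusted p = 0.422).

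After thinning, Gzmb was found in 2.63% and 5.36% of NO_AG CD4 cells, 15.3% and 30.9% in AG, and 24.1% and 25.0% in AG_CPI. The keratinocyte share in AG 2 was 5.85%, below the 30.9% of its CD4 cells. CD4 cells with Foxp3, the regulator of regulatory T cells, had Gzmb more often in 2 of 3 mice (15% to 34.6% against 12.4% to 31.3%). Gzmk was at 0 to 0.491 and Prf1 at 0 to 0.292 in CD4 cells. Gzmc was at 0 in both NO_AG and both AG_CPI mice, at 0.0571 in AG 1 and at 0.493 in AG 2. In the granule list limma called Srgn (1.15) for AG_CPI against NO_AG among 17 tested. Among 13 regulators, Tcf7 had 0 and 1 UMIs in the AG_CPI mice and entered the fit through the other mice, so its call is not read.

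T cells with Trdv4 had the most Prf1 of the 4 gates in NO_AG mice. Prf1 was at 4.84 and 4.55 in the NO_AG mice, 4.51 and 1.53 in the AG mice, and 3.69 in AG_CPI 2, with AG 2 below the other 4. AG_CPI 1 had 7 cells and was left out of the fit, so AG_CPI was not compared. Thinned, Prf1 was found in 47.5%, 43.8%, 45.3% and 19.5% of the NO_AG and AG cells, against at most 0.605% of keratinocytes. In 3 of these 4 mice most such cells showed Prf1 without a granzyme of the set, the exception being AG 2: Prf1 alone was seen in 39.1% and 39.1% of NO_AG cells, 37.5% in AG 1 and 4.03% in AG 2.

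Gzmc in the Trdv4 gate was at 5.95 and 9.36 in NO_AG, 4.56 in AG 1, 54.0 in AG 2 and 3.52 in AG_CPI 2. Gzmb was at 0.139 and 0.394 in NO_AG, 0.986 in AG 1, 23.1 in AG 2 and 0 in AG_CPI 2, where 0 UMIs allow a level of up to 0.869. AG 2 thus stood apart for all 3 genes, with Gzmb and Gzmc high and Prf1 low. The markers of the gate (Trdv4, Trgv5, Trdc, Fcer1g, Tyrobp, Klrk1) summed to 79.1 UMIs per 10000 in AG 2 and 105 to 109 in the other mice of NO_AG and AG, and its median depth was 1951 UMIs against 2298.5 to 2914.5. Keratinocyte markers summed to 7.49 against 1.86 to 4.42 in those mice and myeloid markers to 0.583 against 0.0573 to 0.146. The CD8 list, in which Cd8a and Cd8b1 were at 0 and Cd3e gave most of the sum, stood at 29.99 against 67.9 to 74.8. The part of these values in the result was not tested. Gzmb and Gzmc were found together without the other 2 genes in 25.5% of AG 2 cells (38 cells), against 0.704%, 0.521% and 0.391% in NO_AG 1, NO_AG 2 and AG 1.

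Among AG 2 cells with Gzmb, 81.7% also had Gzmc, against 38.2% of those without, a ratio of 1.47 to the product of the shares. By limma, AG against NO_AG gave 4.00 for Gzmb (SE 1.36, adjusted p = 0.689), 1.21 for Gzmc (adjusted p = 0.797) and −0.67 for Prf1 (adjusted p = 0.747). Of 7365 genes, 0% were called and 495 had an unadjusted p under 0.05. Without AG 2 the values were 1.77 (called, limma adjusted p = 0.0497), −0.58 and 0.06. Without AG 1 they were 6.25, 3.02 and −1.38, all called by limma (adjusted p = 0.000195, 0.000606 and 0.000962). In both of these fits the lone AG mouse is assumed to vary like the other groups. Gzmk was absent from this gate but for 1 UMI in AG 2.

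In Trdv4 cells with Xcl1, Gzmc was found more often in 4 of 4 mice (15.3% to 80.5% against 1.89% to 29.2%) and so was Prf1 (26.0% to 52.7% against 12.5% to 34.9%). Gzmc and Prf1 were found together at 0.798 and 0.635 times the product in NO_AG, and at 1.41 and 1.18 times in AG. None of the 21 granule genes and 10 regulators tested was called.

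Lymphocytes without Cd3 had the highest Gzmc mean of the 4 gates in 5 of 6 mice, the exception being AG 2, where Trdv4 cells stood at 54.0. The means of the Cd3-negative gate were 77.7 and 84.5 in the NO_AG mice, 26.2 and 12.9 in the AG mice, and 4.24 and 27.1 in AG_CPI, and the NO_AG mice lay above the other 4. In AG_CPI the gate held 14 and 17 cells. Few cells carried these levels: in NO_AG 2, 1 cell held 685 of 1928 Gzmc UMIs, and thinned detection was 32.9%, 17.0%, 12.8%, 3.57%, 14.3% and 23.5% in the order of the groups, against at most 1.31% of keratinocytes. Median depth was 2573 and 2935 UMIs in the NO_AG mice and 3093 to 4449 in the other 4, so that depth and Gzmc separated the same mice.

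By limma, Gzmc differed by −2.04 for AG against NO_AG (adjusted p = 0.829), −0.79 for AG_CPI against AG (adjusted p = 0.770) and −2.83 for AG_CPI against NO_AG (adjusted p = 0.163). No gene of 3640 was called in any of these comparisons (0%), and 168, 267 and 444 had an unadjusted p under 0.05. Without AG_CPI 2, Gzmc was called by limma in all 3 comparisons, at −2.04 (adjusted p = 0.0406), −2.13 (adjusted p = 0.0390) and −4.17 (adjusted p = 0.000999). Without AG_CPI 1 it was called for AG against NO_AG alone, at −2.06 (limma adjusted p = 0.0403). Summed ILC2 markers were at 6.07 and 5.13 per 10000 with NO_AG, 5.64 and 1.67 with AG and 1.93 and 0.429 with AG_CPI, where 4 of the 5 markers were at 0. AG_CPI 2 had the lowest ILC2 sum and a Gzmc mean of 27.1 on 17 cells, and AG 1 had a Gzmc mean of 26.2. Summed myeloid markers were at 0.404 and 0.724 with NO_AG and 0.945 to 1.94 in the other 4 mice, and summed natural killer and ILC1 markers ranged over 14.4 to 16.6, 9.48 to 18.4 and 10.3 to 18.9 in the 3 groups. The part of depth and of these markers in the Gzmc values was not tested.

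Gzmb was low in this gate, at 0.402 and 0.750 in the NO_AG mice, 1.23 and 0.272 in the AG mice and 1.76 and 2.02 in AG_CPI, on 5 to 13 UMIs a mouse. Its differences were 0.18, 1.48 and 1.66 in the order of comparisons above, none called by limma. Without AG 2 the first 2 were 1.10 and 0.58, and without NO_AG 2 the first was 0.57. Prf1 was at 0.598, 1.25, 1.83, 0, 2.30 and 0, and the mice at 0 were AG 2 and AG_CPI 2. Gzmk was at 0 in all 286 cells. That allows a share of cells with a Gzmk UMI at this depth of up to 3.53% in NO_AG 1, the mouse with the most cells, and up to 21.4% in AG_CPI 1, the mouse with the fewest, and sets no limit on cells that express it. Cells with Xcl1 had Gzmc in 50% to 80.8%, against 0% to 11.9% without it, and Prf1 in 26.9% to 60%, against 0% to 1.69%, in 2 of 2 mice with enough cells. None of 18 granule genes and 7 regulators was called.

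Across gates the 4 genes had different orders, tested within mice over 23 profiles of 8384 genes. Against the CD8 gate, limma called 2.4% of genes in the CD4 gate, 14.2% in the Trdv4 gate and 10.4% in the Cd3-negative gate. A gene enters this fit when 2 libraries of any gate hold 10 of its UMIs, so a member with fewer UMIs in a gate had to differ there. Such members are given by their levels or bounds, with no p and no count of calls. Gzmb was highest in CD8 cells in 5 of 6 mice. The Trdv4 gate stood at −3.50 (limma adjusted p = 0.000855), lower in 4 of the 5 mice in the fit (AG_CPI 1, with 7 cells, was left out), and remained called at −4.54 without AG 2, −2.60 without AG_CPI 2, −2.57 with a pseudocount of 0.5 and −2.52 with at least 30 cells per library. The Cd3-negative gate stood at −3.25 (limma adjusted p = 0.00153), lower in 6 of 6, or at −3.94 from summed UMIs and −4.44 with stricter gates. The CD4 gate was lower in 6 of 6 mice but not called, at −2.43 (limma adjusted p = 0.0537), and it was called without AG 2 at −2.69 (limma adjusted p = 0.000704) and without AG_CPI 2 at −2.60 (limma adjusted p = 0.0182). The exception among mice was AG 2, whose Trdv4 cells (23.1) exceeded its CD8 cells (14.1).

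Gzmk was highest in the CD8 gate in 6 of 6 mice and at 0 in Cd3-negative cells of all 6, so that no fitted fold is given there. Taking 3 UMIs per library as the floor, Gzmk summed over cells was at least 51.3-fold lower in Cd3-negative cells of AG 2 than in its CD8 cells, 12.6-fold in AG 1, 8.43-fold in AG_CPI 1, 6.48-fold in NO_AG 1 and 6.29-fold in AG_CPI 2, while in NO_AG 2 the CD8 level itself lay under the floor. In the Trdv4 gate it was at least 43.9-fold lower in AG 1 and 41.5-fold lower in NO_AG 1, but the bounds were 5.19-fold in NO_AG 2, 2.43-fold in AG_CPI 2 and 1.22-fold in AG_CPI 1. In the CD4 gate Gzmk had 0 to 7 UMIs a mouse, and its mean, at 0 to 0.491 UMIs per 10000, was below that of CD8 cells in each mouse. In NO_AG 2 that rests on 0.0744 (2 UMIs) against 0.118 (15 UMIs), too few to count as lower.

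Gzmc went the other way: the Cd3-negative gate stood at 3.84 (limma adjusted p = 5.02e-05, and 4.44 with at least 30 cells per library), higher in 6 of 6 mice, and the Trdv4 gate at 1.90 (limma adjusted p = 0.0462). Without AG 2 the Trdv4 difference was 0.79 and lost its call (limma adjusted p = 0.328). It also lost the call without NO_AG 1 (2.13), NO_AG 2 (2.04) or AG 1 (2.03), without the filter (1.82), and from summed or thinned UMIs (1.85 each). In the CD4 gate Gzmc had 0 UMIs in 4 mice, where it was at least 5.45-fold to 22.9-fold lower than in CD8 cells of the same mouse. AG 2 was the mouse in which the CD4 mean (0.493) was not below the CD8 mean (0.407).

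Prf1 had 0 to 14 UMIs a mouse in the CD4 gate, with 10 or more in AG 2 alone, and its mean there (0 to 0.292 UMIs per 10000) was below that of CD8 cells in 6 of 6 mice. No difference was called between the CD8 and Trdv4 gates, at 1.49 with an interval from 0.23 to 2.74 (limma adjusted p = 0.120), nor between the CD8 and Cd3-negative gates, at −1.16 with an interval from −2.34 to 0.03 (limma adjusted p = 0.231). Without AG 2 the Trdv4 difference was called at 1.95 (limma adjusted p = 0.0247) and the Cd3-negative difference was −0.46, and without AG_CPI 2 the latter was −0.59. Gates other than CD8 were not compared directly. Over mice, the Gzmc means of the Cd3-negative gate (4.24 to 84.5) lay above those of the CD4 gate (0 to 0.493), and the Prf1 means of the Trdv4 gate (1.53 to 4.84) above those of the CD4 gate (0 to 0.292). The ranges of the Trdv4 and Cd3-negative gates overlapped for Gzmb, Gzmc and Prf1.

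Granule genes followed no single order either, and folds are given for called genes that met the filter in the lower gate by itself. Other calls are not read. Over all 8384 genes, 2.4%, 14.2% and 10.4% were called in the CD4, Trdv4 and Cd3-negative gates. In the CD4 gate 1 of 24 tested was called higher than in CD8 cells (Stx11, 1.18) and 5 lower, of which Nkg7 (−1.99), Ctsw (−2.07) and Tnfsf10 (−1.04) met it. In the Trdv4 gate 3 were called higher, among them Ctsc (2.11), which activates granzymes, and Rab27a (1.23), and 4 lower, of which Gzma (−6.11) and Tnfsf10 (−1.36) met it. The Cd3-negative gate had 3 called higher, of which Ctsc (1.19) met it, and 4 lower, of which Nkg7 (−2.10) and Cst7 (−1.49) did. Gzmf was at 0 UMIs in the CD4 and Cd3-negative gates of all 6 mice.

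Of 17 regulators tested, the CD4 gate had Il2ra (2.69) called higher than the CD8 gate, where 2.4% of all genes were called. Eomes and Il12rb2 had at most 9 UMIs in a CD4 library and entered through other gates, so no call is read. In the Trdv4 gate, where 14.2% of all genes were called, 3 were higher (Il12rb2 1.98, Tcf7 1.36, Runx3 0.55). Of those called lower, 3 met the filter in the Trdv4 gate by themselves, among them Id2 (−1.21). Tbx21, Zeb2, Prdm1, Eomes and Zfp683 had 0 to 8 UMIs a library there and entered through other gates, so no call is read. In the Cd3-negative gate Hopx (−1.34) was lower.

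Whether a group effect differed between a gate and the CD8 gate was tested for each gene in 28 interaction terms, and limma called 1. That was Gzmk for AG_CPI against NO_AG in the Cd3-negative gate, at −2.97, where 1.15% of 8384 genes were called. All Cd3-negative cells were at 0 and Gzmk entered the fit through the CD8 cells, so this value restates the CD8 rise against a constant pseudocount and is not read as a difference between the gates. It was called without AG_CPI 2 and under no other omission of 1 mouse. Elsewhere the shares of genes called were 0.0239%, 0.0239% and 0.0954% for the CD4 gate (AG against NO_AG, AG_CPI against AG, AG_CPI against NO_AG), 0.0119% for the Trdv4 gate, and 0.0716% and 0.107% for the first 2 comparisons of the Cd3-negative gate. The Gzmb difference in CD4 cells exceeded that in CD8 cells by 1.40 for AG against NO_AG (interval −1.01 to 3.82), not called.

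A sum over the retained cells of a library gives the share of each RNA's UMIs that came from each gate, which depends on how many cells were recovered as well as on levels. How recovery relates to cell numbers in the skin was not tested. CD8 cells were 2.73% and 10.2% of retained cells in the NO_AG mice, 28.5% and 17.8% in the AG mice, and 62.8% and 52.2% in AG_CPI. Prf1 UMIs came mainly from Trdv4 cells in NO_AG (87.7% and 76.7%), where CD8 cells gave 1.92% and 7.0%. In AG the CD8 share was 64.7% and 77.5%, and in AG_CPI 86.2% and 81.1%, with Trdv4 cells at 0.367% and 2.21%. The gate with most of the recovered Prf1 UMIs was therefore a different one in NO_AG than in the other groups.

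CD8 cells gave the largest share of Gzmb and Gzmk UMIs in every mouse. For Gzmb the CD8 share was 47.3% and 73.3% in the NO_AG mice, 84.8% and 61.0% in the AG mice, and 90.6% and 84.3% in AG_CPI. For Gzmk it ran from 78.9% to 94.3% over the 6 mice. Gzmc UMIs were spread: in NO_AG, cells with Cd3 outside the gates gave 54.6% and 31.0% and Cd3-negative cells 24.7% and 32.2%, in AG 2 Trdv4 cells gave 62.0%, and in AG_CPI CD8 cells gave 84.1% and 53.1%.

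**Figure D5:**
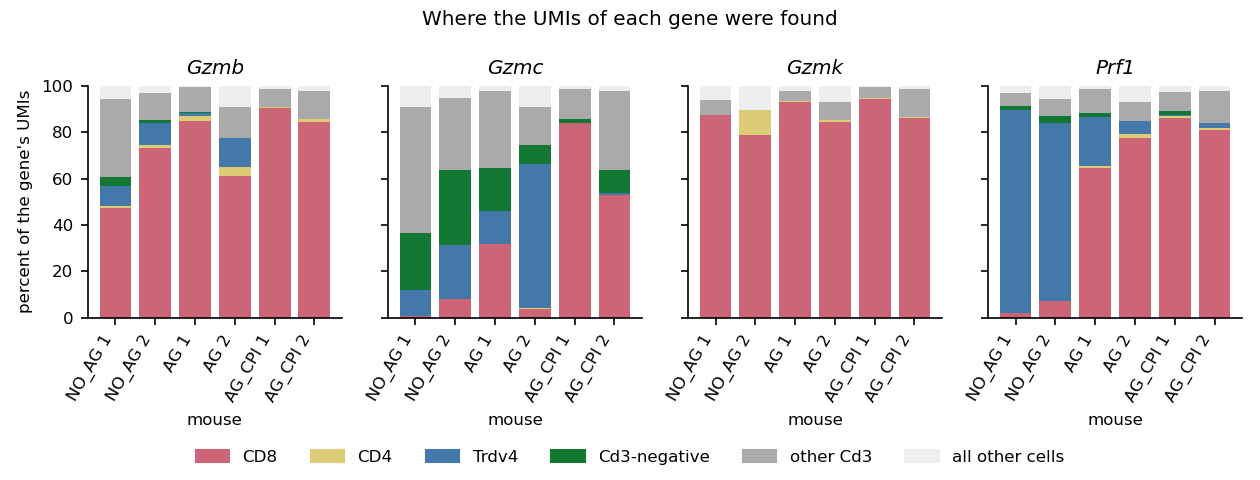
Percent of each gene's UMIs in a library (vertical axis) that came from each gate, 1 bar per mouse. Prf1 UMIs come mostly from the Trdv4 gate in NO_AG (87.7% and 76.7%) and mostly from the CD8 gate in the other mice (64.7% to 86.2%), and Gzmk UMIs come mostly from the CD8 gate in all 6.

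Over the 23 profiles, which share mice and depth, the levels of Gzmb and Gzmk had a Pearson r of 0.72. The r was 0.35 for Gzmc with Prf1, 0.15 for Gzmk with Prf1, 0.06 for Gzmb with Prf1, −0.13 for Gzmb with Gzmc and −0.36 for Gzmc with Gzmk. Among 8384 genes, those nearest to Gzmb were Ccl5 (0.75), Abracl (0.74), Ccl4 (0.73), Gzmk (0.72) and Isg20 (0.72). Nearest to Gzmk were Lcn4 (0.90), Trbv13-3 (0.88), Ifi214 (0.88), Trdv5 (0.84) and Cd8b1 (0.84), of which Cd8b1 helped define the gate.

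Nearest to Gzmc were Cdh1 (0.85), Mtss1 (0.84), Xcl1 (0.84), Atp6v0b (0.84) and Fcer1g (0.83). Nearest to Prf1 were Dapk2 (0.87), Il2rb (0.81), Trdc (0.80), Myl12a (0.79) and Gem (0.79). These are descriptions over profiles that are not independent.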

How the data were processed

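Skin cells of 6 mice were measured by 10x Genomics 5' single-cell RNA-seq, and the submitters' processing notes name Cell Ranger 3.1 and mm10. The unit is not written in the file headers. It was read from the deposited values, which are on a log10 scale: a gene's UMIs, scaled to 10000 per cell, with 1 added. On that reading 100% of values return to whole UMIs within 0.02, and no count model was used. The members, gene lists and tests were chosen with earlier results of these data known.

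Cells with fewer than 200 genes or over 20% mitochondrial UMIs were dropped. Scrublet in scanpy 1.11.5 removed 663 doublets, more from larger libraries, and 51 cells failed the filters. T gates needed a UMI of Cd3d, Cd3e or Cd3g. The CD8 gate needed Cd8a or Cd8b1 without Cd4 or Trdv4, the CD4 gate Cd4 without Cd8a, Cd8b1, Trdv4 or Trdc, and the Trdv4 gate Trdv4 without Cd4 or Cd8. The Cd3-negative gate needed Ptprc and a lymphocyte gene (Il2rb, Il7r, Thy1, Klrb1b, Klrb1c, Klrk1, Ncr1 or Cd7) without T-cell genes. Keratins had to be under 1% of UMIs and fibroblast and myeloid genes under 0.2%.

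Per mouse and gate of at least 10 cells, linear values were averaged, TMM-scaled without weights and tested as log2(mean + 0.1) with limma 3.58.1 in R 4.3.3, so that folds of low genes are understated. Genes needed 10 UMIs and a mean of 0.1 in 2 libraries. p-values were adjusted over all genes tested by Benjamini-Hochberg. Where an omission leaves 1 mouse in a group, it is assumed to vary like the others. The fit was tested on simulated data. Shares of cells used 1 seeded draw of 1500 UMIs per cell, and 0 UMIs allow up to 3. Besides the 4 genes, up to 6 called genes per list and direction with the smallest p are named, and the 5 genes with the highest Pearson r to each. Folds of called genes are given where the lower side met the filter by itself, a choice made after the values were seen. Replicate numbers were taken only as names of mice. Alternatives covered the pseudocount, scaling, filters, gates, doublets, thinning, summed UMIs, the replicate block, the groups fitted and each mouse left out.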

Additional observations from a re-analysis of the deposited data

Results flagged for a closer look

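The effect of AG_CPI against NO_AG on Gzmk stood at −2.97 on the log2 scale for the Cd3-negative gate relative to the CD8 gate, and was picked out because limma called this interaction term. In CD8 cells Gzmk went from 0.509 and 0.118 UMIs per 10000 in the NO_AG mice to 3.17 and 2.11 with AG_CPI. All 286 Cd3-negative cells were at 0, including the 14 and 17 cells of the AG_CPI mice, so the value restates the CD8 rise against a constant pseudocount and shows no difference between the gates beyond it. With a pseudocount of 0.5 it was −2.05. The call was lost in 5 of the 6 fits that leave out 1 mouse, and held without AG_CPI 2.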

How the results depend on the processing

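Of 44 fold changes, 27 kept direction and side of the threshold under every alternative that left out no mouse, 20 under every omission of 1 mouse and 17 under both. Where a value below changed side or sign, the cause was not tested. With no filter on low values, calls were lost for Gzmb (1.79) and Gzmk (2.95) in CD8 AG against NO_AG, Gzmk in CD8 AG_CPI against NO_AG (3.0), Gzmb in CD4 (3.2 and 2.88) and Gzmc in Trdv4 against CD8 cells (1.82). More genes were then tested. Gzmb in CD4 against NO_AG had passed the filter only through libraries in which it was high. Its fitted values and calls, here and below, are descriptions and are not read as tests. A pseudocount of 0.5 called Gzmc in CD8 AG against NO_AG (−1.31), Gzmb in CD4 against CD8 cells (−2.07) and Prf1 in Trdv4 against CD8 cells (1.15). With 30 cells per library Gzmb in CD4 AG against NO_AG lost its call (3.08), and Gzmc in Cd3-negative AG against NO_AG (−2.03) and Gzmb in CD4 against CD8 cells (−2.34) gained one. With only the groups compared, Gzmb in CD4 AG against NO_AG lost its call (3.07), and Gzmc in CD8 AG_CPI against NO_AG (−0.63) and in Cd3-negative AG against NO_AG (−2.03) gained one. From summed UMIs, Gzmb in CD4 AG_CPI against NO_AG (2.58) and Gzmc in Trdv4 against CD8 cells (1.85) lost calls, and 3 uncalled values changed sign: Gzmk in CD8 AG_CPI against AG (−0.10, and −0.021 under stricter cell filters), Gzmb in Cd3-negative AG against NO_AG (−0.33) and Prf1 in Cd3-negative AG_CPI against AG (−0.022). Thinning called Gzmb in CD4 against CD8 cells (−2.60) and lost Gzmc in Trdv4 against CD8 cells (1.85). The Gzmk difference between gates lost its call with the deposited scaling alone (−2.89), no filter (−3.02), summed UMIs (−2.71), thinning (−2.91) and stricter gates (−2.84).

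The replicate block called Gzmc in CD8 AG against NO_AG (−1.70, limma adjusted p = 0.0297) and Gzmb in Trdv4 AG against NO_AG (4.00, limma adjusted p = 0.0408) and changed no other call. Same-numbered mice did not deviate together, with correlations of −0.0145, 0.0364 and −0.135 over 7293 genes.

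Leaving out 1 mouse gave these ranges. In CD8 cells Gzmc ran from −2.52 to −0.90 (AG against NO_AG), 0.27 to 1.89 (AG_CPI against AG) and −0.80 to −0.46 (AG_CPI against NO_AG), Gzmb from −0.13 to 0.34 and Gzmk from −0.40 to 0.44 (AG_CPI against AG), and Gzmk from 2.16 to 3.68 (AG_CPI against NO_AG). In CD4 cells Gzmb ran from 2.24 to 4.02, −1.14 to 0.64 and 2.51 to 3.24. In Trdv4 cells Gzmb ran from 1.77 to 6.25, Gzmc from −0.58 to 3.02 and Prf1 from −1.38 to 0.060. In Cd3-negative cells Gzmc ran from −2.57 to −1.54, −2.13 to 0.54 and −4.17 to −1.52, and Prf1 from −3.24 to 1.07, −2.16 to 2.43 and −3.25 to 1.35. Against CD8 cells, Gzmb in CD4 ran from −2.69 to −2.22, Prf1 in CD4, on too few CD4 UMIs to read as a fold, from −2.58 to −2.36, Gzmc in Trdv4 from 0.79 to 2.28 and Prf1 in Trdv4 from 1.16 to 1.95. Gzmc between segment classes ran from 1.42 to 2.29, and the Gzmk difference between gates from −3.73 to −2.21.

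Counts of called genes moved more. Over the alternatives and omissions, the CD8 counts of 140, 2 and 248 ran from 18 to 267, 0 to 30 and 48 to 404. The CD4 counts of 7, 1 and 24 ran from 1 to 15, 0 to 8 and 1 to 44. The Trdv4 count of 0 reached 1383 without AG 1, and the Cd3-negative counts of 0 reached 10, 48 and 106. The gate counts of 201, 1187 and 871 ran from 120 to 303, 801 to 1380 and 582 to 1220, the interaction count of 96 from 3 to 324 and the segment count of 29 from 13 to 34. Depth limits Gzmk and Prf1 in CD4 and Cd3-negative cells, where every mouse had fewer than 10 UMIs of Gzmk, and the 7 to 17 AG_CPI cells of the Trdv4 and Cd3-negative gates.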

Other observations

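Cells with at least 10 Gzmc UMIs after thinning, a class chosen after the values were seen, numbered 235 of 20464. Of these, 90 had Cd3 UMIs but met no gate, 68 were in the Trdv4 gate, 39 in the Cd3-negative gate, 26 in the CD8 gate and 12 in no class, and 0 were CD4 cells, keratinocytes or myeloid cells. NO_AG 1 gave 63 and NO_AG 2 gave 13 of the 90, and AG 2 gave 34 of the 68. Fcer1g, a signalling adaptor of innate and some gamma-delta lymphocytes, was found in 98.9% of the 90 cells, against 16.7% of the 1740 cells of that class without Gzmc. Xcl1 was found in 81.1% against 7.87%. Among the 39 Cd3-negative cells, Fcer1g was found in 100% and Xcl1 in 76.9%, against 51.7% and 8.90% of the 236 without Gzmc. Among the 26 CD8 cells, Fcer1g was found in 57.7%, against 3.33% of the 4177 without Gzmc. These shares pool mice that give unequal numbers of cells and are descriptions.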
